A study of Saccharomyces cerevisiae with 12 samples.

Results

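The right arm of chromosome XI of budding yeast (Saccharomyces cerevisiae) was described in RNA-seq of wild-type cells (WT) and of cells whose SPT6 allele lacks the tSH2 domain (tSH2Δ). The members were the rows of the table of all genes whose ID starts with YKR and whose RPKM was at least 1 in at least 3 of the 6 libraries. RPKM divides the reads of a gene by its length and by the total reads of the library. The table held 109 such IDs. Of these, 10 were left out by name, among them GAP1 and PCK1, and YKR032W was under the minimum, which left 98 members of 6571 genes in all. YKR032W had at most 0.353 RPKM in any library, and YKR033C, the member nearest the minimum, reached 1.02 RPKM in its third-highest library. The arm was chosen with its difference between the strains already known, so its fall is given as a description and no p-value is attached to it.

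Both strains carry the label S288C, the laboratory reference strain, and they are told apart by genotype as WT and tSH2delta. Cultures were grown in the rich glucose medium YPD for 4 h after dilution from saturation to an OD600 of 0.2, with no treatment, and 3 RNA libraries were made per strain. Nothing in the labels says that the replicates were separate cultures, or how many clones of the mutant were used, so the spread between libraries may be technical. The libraries held 20483931 to 27069700 reads, of which 17575916 to 23722190 lay in genes. SPT6 (YGR116W), the altered gene, stood at 180.4 ± 5.76 for WT against 84.7 ± 0.816 for tSH2Δ (mean ± SD of 3 libraries, n = 3, rescaled RPKM as defined below), a value over the whole gene that includes the part absent from the mutant.

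Spt6, a histone chaperone, moves along genes with elongating RNA polymerase II, to which its tandem SH2 (tSH2) domain binds. A chromosome arm is not a regulatory unit. Its genes belong to unrelated pathways, have their own promoters and lie on both strands, and they share a centromere, a telomere and the copy number of the chromosome. The study asked what part Spt6 plays in mRNA stability. An RNA level does not by itself tell synthesis from decay.

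Most genes of the arm were lower in tSH2Δ. To compare the strains, RPKM values were divided by a size factor per library that sets the median gene equal, which gives rescaled RPKM, and the log2 fold change is that of rescaled RPKM plus 1, tSH2Δ against WT. A gene is called lower or higher where limma's test on all 6307 tested genes gave a Benjamini-Hochberg adjusted p under 0.05. Of the 98 members 84 were called lower, 8 higher and 6 neither. Among all tested genes 41.9% were called lower, 41.6% higher and 16.5% neither. The members' median log2 fold change was -0.79, with the middle 50% of them between -1.26 and -0.45, while the median of the 5965 tested genes off chromosome XI was 0.04. The gap between these medians was -0.84. In RPKM as deposited, where the median gene stood 0.57 higher in tSH2Δ, the members' median was -0.22 and the gap -0.83. On that scale 58 members were called lower and 24 higher, against 17.3% and 72.4% of all tested genes. Quantile normalization, which gives all libraries the same distribution, moved the values of 29 of the 84 members called lower by over 1.5 times, 21 of them towards or past 0 and 8 further below it.

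The difference was visible as a level within WT alone. In WT replicates 1, 2 and 3 the median member had 105.9, 104.1 and 105.0 rescaled RPKM, and the median gene off chromosome XI had 51.2, 51.4 and 51.9. In tSH2Δ replicates 1, 2 and 3 the median member had 54.6, 55.2 and 53.7, and the median gene off chromosome XI had 57.0, 56.6 and 56.9. The ratio of these medians was thus 2.04 ± 0.0241 among WT libraries and 0.959 ± 0.0163 among tSH2Δ libraries (SD, n = 3), and on it the scaling of a library has no effect. The members took 1.98% ± 0.0405 of the reads in genes in WT and 1.41% ± 0.0286 in the mutant (SD, n = 3). A difference between the strains in copies of chromosome XI per cell, in the share of cells with more copies, and in RNA per gene copy cannot be told apart in these values.

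Among the 32 chromosome arms, taken from the first 3 letters of the gene IDs, both arms of chromosome XI stood apart. With all 107 tested YKR genes, members or not, the right arm had a WT median of 105.4 rescaled RPKM and the left arm (YKL, 235 tested genes) one of 125.1. On the other 30 arms the WT median ran from 17.6 to 59.7. In tSH2Δ the right arm's median of 55.7 was 17th of the 32 arms, and the other 30 arms ran from 25.9 to 65.3. The median log2 fold change was -0.79 for the YKR genes and -0.89 for the left arm, against -0.06 to 0.40 on the other 30 arms. The share of genes called lower was 84.1% and 88.1% on the 2 arms of chromosome XI, and 18.8% to 46.0% on the others. Of the YKR genes left out by name 9 were tested, and 6 of them were called lower and 1 higher, with a median of -0.92. They ran from -2.51, which is below every member, to 0.60.

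**Figure D1:**
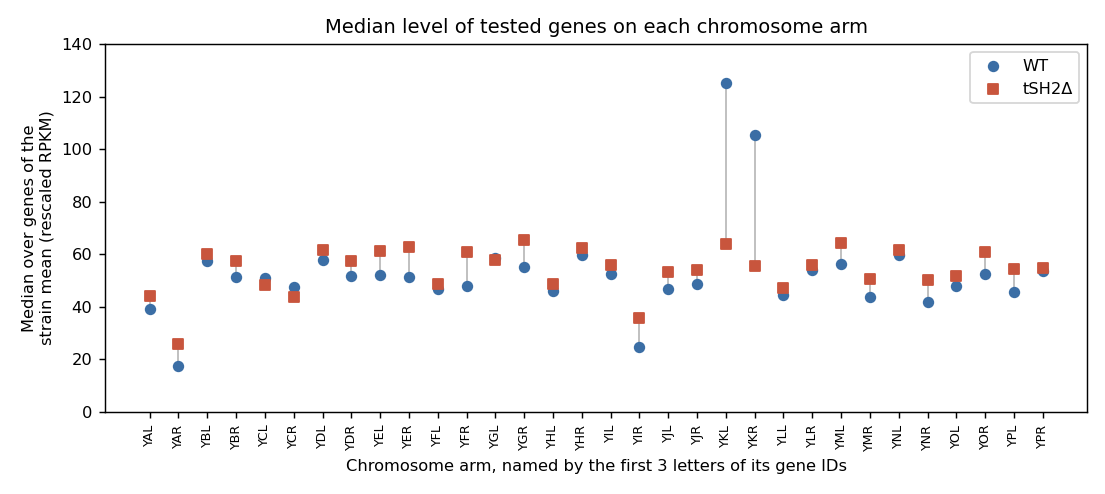
Each point is the median over the tested genes of a chromosome arm of the strain mean in rescaled RPKM, for WT (circles) and tSH2Δ (squares), with a line joining the strains. In WT both arms of chromosome XI (YKL at 125.1, YKR at 105.4) lie above the other 30 arms, whose highest is 59.7, and in tSH2Δ they lie within the range of the others.

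Along the arm the fall ran from the centromere nearly to the telomere. In gene-number order, the members in consecutive blocks of 10 had median log2 fold changes from -1.19 to -0.70 in each of the first 9 blocks, with 7 to 10 of 10 called lower. The lowest median, -1.19, belonged to block 9, from the lipase gene TGL4 to the deubiquitinase gene UBP11. Block 10, the 8 members from BAS1 to GEX2 next to the telomere, had a median of -0.21 with 5 called lower. These 8 were also lowly expressed, with a median WT level of 16.3 rescaled RPKM against 80.9 to 124.2 in the other blocks. The part of either level or place in this was not tested.

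At the centromere genes on both sides were lower in rescaled RPKM. The first 3 members were VPS1 at -1.69, OSH6 at -1.65 and ECM9 at -0.84. The first 3 genes of the left arm were MET14 at -0.44, DID4 at -0.59 and MRP17 at -0.67. In RPKM as deposited VPS1, OSH6 and ECM9 stood at -1.11, -1.07 and -0.29. On that scale MET14, DID4 and MRP17 stood at 0.13, -0.01 and -0.09. In blocks of 10 counted from the centromere, 23 of the 24 left arm blocks had a median below 0. The exception, at 0.14, was the outermost block, which held 5 genes. Over 97 pairs of adjacent members Pearson's r was 0.18 and Spearman's rho 0.20, and over 5935 pairs of adjacent genes off chromosome XI they were 0.16 and 0.15. Pairs share reads where genes overlap, and over the 91 pairs of adjacent members in RefSeq the values were 0.11 and 0.16. Members on the Watson strand (48, median -0.78) and on the Crick strand (50, median -0.81) had near-equal medians.

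**Figure D2:**
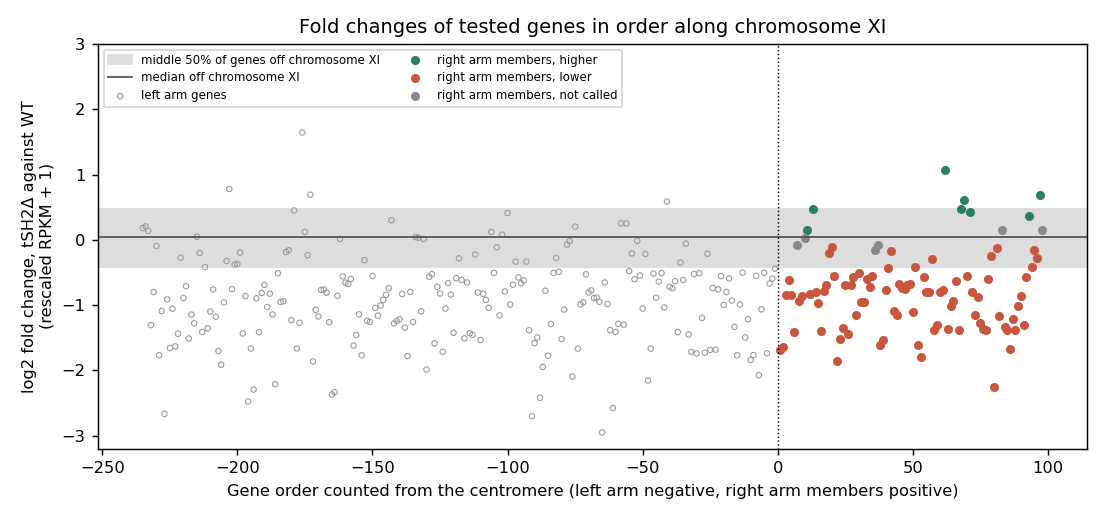
Each point is a tested gene of chromosome XI, placed by its order from the centromere (left arm to the left, open circles) with its log2 fold change of rescaled RPKM plus 1. The grey band and line are the middle 50% and the median (0.04) of genes off chromosome XI. Most right arm members lie below the band, and the 8 called higher are scattered among them between order 11 and 97.

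Among the 98 members the furthest fall was that of TVP38, which encodes a membrane protein of the late Golgi. TVP38 (YKR088C, chromosome XI, 604405 to 605418, sacCer3) had 105.8, 105.8 and 104.7 rescaled RPKM in WT and 21.2, 20.5 and 21.9 in tSH2Δ. The strains did not overlap, and each tSH2Δ library lay far below each WT library. Its log2 fold change was -2.26 (SE 0.0374), which is 1.47 below the members' median, and 0.17% of the genes off chromosome XI had a lower value. A log2 fold change of -1 or less was reached by 34 of the 98 members, and by 9.5% of all tested genes. Within 0.25 of the members' median lay 40 members. The groups did not overlap for 84 members with tSH2Δ lower and 8 with tSH2Δ higher, the share over all tested genes being 42.2% and 42.5%.

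The counts of the role lists below stand beside 85.7% of all 98 members and 41.9% of all tested genes called lower. Differences between the lists were not tested. Genes of RNA processing, ribosome production and translation fell in all 12 cases, with a median of -1.34. Their median WT level was 158.7 rescaled RPKM, against 104.3 for all members, and genes of higher level fell further on the arm and elsewhere. DBP7 (YKR024C, 485144 to 487372), a helicase of large ribosomal subunit assembly, had 164.7, 161.9 and 166.6 rescaled RPKM in WT and 44.4, 43.9 and 45.5 in tSH2Δ, a log2 fold change of -1.86 (SE 0.0327). UTP30 (YKR060W, 556518 to 557342), a protein of pre-ribosomes, had 233.6, 239.7 and 261.6 in WT and 68.3, 72.7 and 68.2 in tSH2Δ, a log2 fold change of -1.80 (SE 0.0502). In both genes all tSH2Δ libraries lay below all WT libraries.

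RPL40B (YKR094C, 617996 to 618750), one of a pair of genes for a fusion of ubiquitin and a large-subunit ribosomal protein, had the highest level of the members. Its rescaled RPKM was 2227, 2268 and 1985 in WT and 629.8, 650.9 and 754.2 in tSH2Δ, a log2 fold change of -1.67 (SE 0.0850), and -0.77 after quantile normalization. Its paralog RPL40A, on chromosome IX, fell from 2156 ± 103 to 887.5 ± 67.1 (SD, n = 3) with a log2 fold change of -1.28. The copies are near-identical and how reads that match both were handled is not given in the sources consulted, so the value of each is uncertain. TRM2, a tRNA methyltransferase, fell by 1.60 on the log2 scale. The smallest fall of the list was that of NTR2, a factor of spliceosome disassembly, at -0.11, which turned to 0.47 in RPKM as deposited and to 0.04 after quantile normalization. NTR2 was not called with a replicate block (-0.11), without WT replicate 3 (-0.09) or without tSH2Δ replicate 2 (-0.10).

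All 13 membrane traffic genes were also lower, with a median of -0.82. VPS1 (YKR001C, 440608 to 442722), a dynamin-like GTPase of vacuolar and endosomal traffic, had 441.5, 452.0 and 448.0 rescaled RPKM in WT and 139.6, 137.2 and 136.8 in tSH2Δ, a log2 fold change of -1.69 (SE 0.0325), and -1.12 after quantile normalization. OSH6, a lipid transfer protein of the oxysterol-binding family, had 214.1, 209.3 and 206.7 in WT and 66.5, 68.6 and 64.1 in tSH2Δ, a log2 fold change of -1.65. The strains did not overlap in either gene. The arrestin-related gene ALY1 had the smallest fall, -0.19, and stood at 0.38 in RPKM as deposited and at -0.30 after quantile normalization.

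All 7 genes of mitochondria were lower, with a median of -0.69. PAM17, a subunit of the mitochondrial import motor, changed most, with a WT mean of 217.0 ± 4.71 and a tSH2Δ mean of 83.1 ± 2.90 rescaled RPKM (SD, n = 3) and a log2 fold change of -1.37. CCP1, the cytochrome c peroxidase gene, was at -1.30, and MIC60, a scaffold of inner membrane junctions, at -0.79 (-0.52 after quantile normalization). OMA1, an inner membrane protease gene, was at -0.25, with 0.33 in RPKM as deposited and 0.03 after quantile normalization.

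Of 10 genes of chromatin and transcription 8 were lower and 2 were higher, and the median was -0.87. RPC37, a subunit of RNA polymerase III, fell furthest, with 135.2, 137.2 and 141.7 rescaled RPKM in WT and 46.3, 45.4 and 51.0 in tSH2Δ and a log2 fold change of -1.52. RSC4, of the remodeller RSC, stood at -1.41, BAS1, an activator of adenine and histidine genes, at -1.30, and the histone chaperone gene NAP1 at -1.15 (-0.52 after quantile normalization). OAF3 had the smallest fall of the list at -0.30, with 0.28 in RPKM as deposited. The 2 genes that were higher, SIR1 and MSA2, are described below.

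Of 8 genes of the cytoskeleton, division and nuclear pore 7 were lower, with a median of -1.14. DAD2, a subunit of the DASH complex that joins kinetochores to microtubules, was at -1.36. The nucleoporin gene NUP133 was at -1.28, MLP1 of the nuclear basket at -1.22 and the dynein heavy chain gene DYN1 at -1.11.

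Genes of metabolism and transport were the most mixed of these lists, with 12 of 16 lower, 2 higher and 2 not called, and a median of -0.61. SHB17, the sedoheptulose bisphosphatase gene, had 564.1, 540.1 and 544.2 rescaled RPKM in WT and 187.1, 188.9 and 189.2 in tSH2Δ, a log2 fold change of -1.54. The peptide transporter gene PTR2 followed at -1.38. After quantile normalization these were -0.88 and -0.77. TGL4, a triacylglycerol lipase gene, had the smallest fall, -0.12, with 0.45 in RPKM as deposited and 0.06 after quantile normalization.

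Of 5 genes of the cell wall and surface 4 were lower and 1 was higher, and the median was -0.57. UTH1, a SUN family gene, had 1232, 1165 and 1096 rescaled RPKM in WT and 375.3, 356.9 and 408.5 in tSH2Δ, a log2 fold change of -1.61, and -0.79 after quantile normalization. The flocculin gene FLO10 stood at -0.41, with 0.09 in RPKM as deposited and -0.80 after quantile normalization. Both ubiquitin genes were lower, with the ligase gene HEL1 at -0.97 and UBP11 at -0.85. Of the 25 members in no list 19 were lower and 3 were higher, and the median was -0.76. In all, 16 of the 84 members called lower had a positive log2 change in RPKM as deposited. On that scale the medians of the lists ran from -0.77 for RNA processing, ribosome and translation to 0.01 for cell wall and surface.

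**Figure D3:**
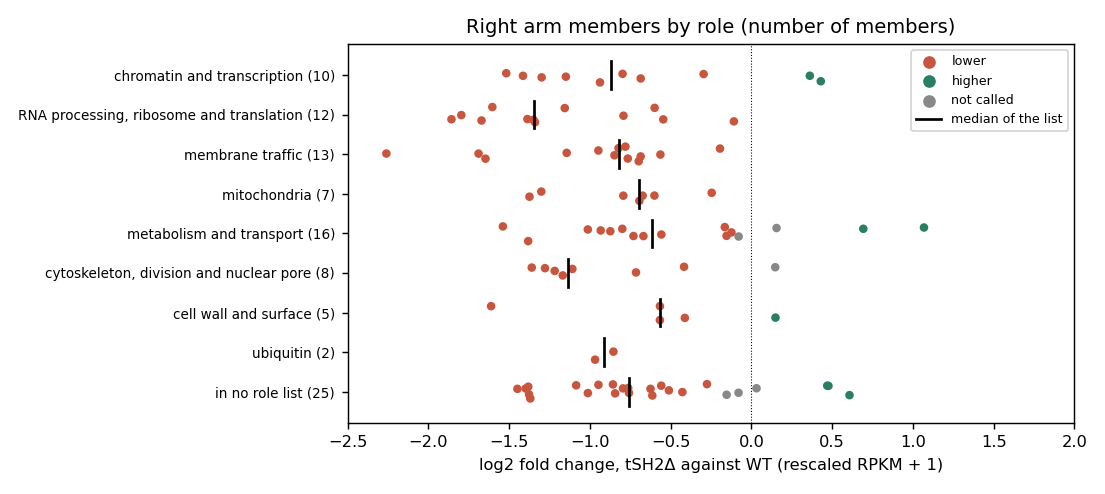
Each point is a right arm member, placed by its log2 fold change of rescaled RPKM plus 1 and grouped by role, with the number of members of each list in parentheses and a bar at the list's median. Every list has its median below 0, from -1.34 for RNA processing, ribosome and translation to -0.57 for cell wall and surface, the list that stands at 0.01 in RPKM as deposited.

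The members that escaped the fall, meaning that they were not called lower, numbered 14, with log2 fold changes from -0.15 to 1.07. MET1 (YKR069W, 571612 to 573393), a methyltransferase gene of siroheme synthesis, which sulfite reductase needs, had the highest log2 fold change of them in rescaled RPKM plus 1. VBA5 was above MET1 with limma-voom on whole reads, and PRY2 was above it after quantile normalization (0.87 against 0.84). MET1 had 22.7, 23.4 and 23.0 rescaled RPKM in WT and 47.0, 48.9 and 52.5 in tSH2Δ, so that every tSH2Δ library lay above every WT library. The log2 fold change was 1.07 (SE 0.0488), which is 1.86 above the members' median, and 92.8% of the genes off chromosome XI had a lower value. Its neighbours on both sides fell, BET3 at -0.77 (-0.28 after quantile normalization) and YKR070W at -1.37.

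MSA2 (YKR077W, 583653 to 584744), a partner of the G1 transcription factors SBF and MBF, had 17.9, 18.0 and 20.9 rescaled RPKM in WT and 27.1, 26.5 and 24.0 in tSH2Δ, a log2 fold change of 0.43 (SE 0.0737). SRL3 (YKR091W, 611525 to 612265), a paralog of the G1 repressor gene WHI5, had 19.4, 25.8 and 23.7 in WT and 26.9, 25.9 and 23.4 in tSH2Δ. The strains did not overlap in MSA2, whereas they overlapped in SRL3, which was not called at 0.15 (SE 0.101). After quantile normalization MSA2 stood at 0.11 and was not called either.

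SIR1 (YKR101W, 640540 to 642504), which helps to establish silencing at the silent mating loci, had 20.2, 24.8 and 21.6 rescaled RPKM in WT and 28.8, 29.6 and 27.8 in tSH2Δ, a log2 fold change of 0.36 (SE 0.0728). Its tSH2Δ libraries all lay above the WT libraries, and after quantile normalization it stood at 0.06 and was not called. The unnamed gene YKR015C had 10.5, 13.5 and 12.6 in WT and 17.4, 17.3 and 16.9 in tSH2Δ, a log2 fold change of 0.47 (SE 0.0852), and was likewise not called after quantile normalization, at 0.07.

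PRY2 (YKR013W, 463959 to 464948), a secreted sterol-binding protein gene, was the only escape with a WT level above 200 rescaled RPKM. It had 401.7, 377.0 and 372.2 in WT and 448.2, 422.6 and 405.9 in tSH2Δ. The groups did not overlap, though the highest WT and the lowest tSH2Δ library lay close together, and the log2 fold change was 0.15 (SE 0.0509). PRY2 was no longer called with size factors from genes off chromosome XI (0.11), nor when WT replicate 2 (0.14), WT replicate 3 (0.13), tSH2Δ replicate 1 (0.11) or tSH2Δ replicate 2 (0.15) was left out. It was higher and called in RPKM as deposited, at 0.73, and after quantile normalization, at 0.87.

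FOX2 (YKR009C, 454352 to 457054), the multifunctional enzyme of peroxisomal fatty acid oxidation, was not called. Its rescaled RPKM was 10.2, 11.0 and 10.4 in WT and 9.89, 9.38 and 10.4 in tSH2Δ, so the strains overlapped, and the log2 fold change was -0.08 (SE 0.0652). FOX2 was called higher in RPKM as deposited, at 0.45, and lower after quantile normalization, at -0.50. The unnamed gene YKR041W was at -0.08 (SE 0.0792), with 11.3 to 13.1 in WT and 11.0 to 12.7 in tSH2Δ, and its calls differed in the same way, at 0.46 and -0.50.

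The last 2 members before the telomere were also among the escapes, at levels near the RPKM minimum. VBA5 (YKR105C, 658716 to 660464), of a family of vacuolar and plasma membrane transporters, had 0.865, 0.998 and 1.26 rescaled RPKM in WT and 2.53, 2.48 and 1.90 in tSH2Δ. This rests on 29 to 38 reads per WT library and 108 to 136 per tSH2Δ library, and the log2 fold change of 0.69 (SE 0.153) is damped by the added 1 RPKM. It was 1.13 with limma-voom on whole reads and 0.41 after quantile normalization. In RPKM as deposited VBA5 had 0.702, 0.810 and 1.05 in WT and 3.12, 3.07 and 2.28 in tSH2Δ. It thus met the RPKM minimum only through its tSH2Δ libraries. A gene this low that had not risen would not be a member, so the filter partly fixed this rise. GEX2 (YKR106W, 661442 to 663289), a glutathione exchanger gene, had 1.83, 1.30 and 1.79 in WT and 1.69, 2.35 and 1.79 in tSH2Δ, which overlapped, and was not called at 0.16 (SE 0.155). Their paralogs on chromosome III, VBA3 and GEX1, had 0 or nearly 0 RPKM in all 6 libraries, so how reads were shared between the copies leaves both values uncertain. NFT1 (-0.15) and YKR104W (-0.28), next towards the centromere, were called lower, and both were positive in RPKM as deposited (0.40 and 0.27) and lower after quantile normalization (-0.51 and -0.67). NFT1 was the called member nearest the threshold, and was not called with a replicate block (-0.15), nor without WT replicate 2 (-0.11), tSH2Δ replicate 1 (-0.16) or tSH2Δ replicate 2 (-0.13).

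The remaining escapes are open reading frames whose reads may belong to a neighbour, since the labels and files do not give the strand setting of the counting. Of the 98 members 6 are absent from the RefSeq table used for names. One of them, YKR035C, had 3415, 2841 and 3066 reads in WT and 2851, 2819 and 2924 in tSH2Δ, and DID2, its neighbour on the other strand, had 3405, 2827, 3053, 2843, 2801 and 2914 in the same order. Both stood at -0.95, and at -0.47 and -0.46 after quantile normalization. The 2 rows thus held nearly the same reads and are not separate evidence of a fall. YKR075W-A and YKR075C, on opposite strands with the same number, both rose. YKR075C had 55.9, 63.0 and 67.3 rescaled RPKM in WT and 91.8, 88.4 and 79.8 in tSH2Δ, a log2 fold change of 0.48 (SE 0.0754), and YKR075W-A was at 0.61 (SE 0.0684). The strains did not overlap in either. YKR075W-A, which is absent from RefSeq, had 46.5, 50.6 and 53.6 rescaled RPKM in WT and 83.2, 76.7 and 71.3 in tSH2Δ. These values rank the libraries as those of YKR075C do. Whether the 2 rows share reads was not tested, so they may not be separate rises. YKR012C, next to PRY2, was at 0.03 (SE 0.0662), and YKR040C, next to YKR041W, at -0.15 (SE 0.0925), both not called. After quantile normalization they stood at 0.41 and -0.57, both called. With the members in RefSeq alone, 81 of 92 were lower and 7 were higher, and the median was -0.79. Among all tested genes, in RefSeq or not, 41.9% were lower and 41.6% higher.

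MET1, YKR075C and YKR075W-A were called higher under each alternative that tested them. So was VBA5, which is a member only through its tSH2Δ libraries, as stated above. At the other end, 58 of the 84 members called lower were called lower under each alternative that tested them. RPKM as deposited alone set this count, since 58 members were called lower on that scale, beside 17.3% of all tested genes. The share of all tested genes called lower under each alternative is not given here.

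**Figure D4:**
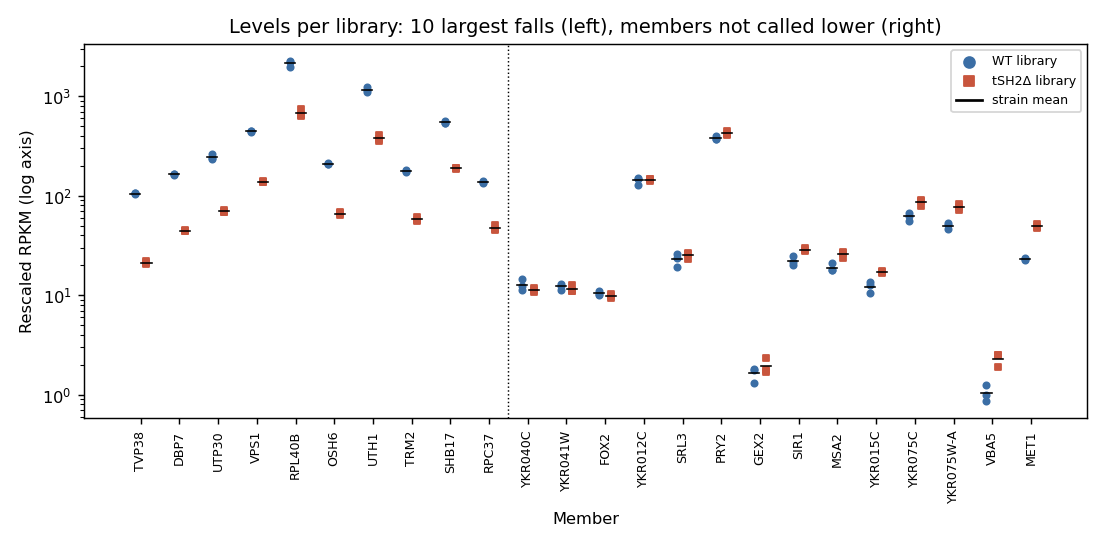
Points are the 6 libraries (WT circles, tSH2Δ squares) and bars the strain means, in rescaled RPKM on a log axis, for the 10 named members with the largest falls (left of the dotted line) and the 14 not called lower (right). In the left group the strains are far apart. In the right group they overlap for 6 members and do not for 8, of which MET1 and VBA5 are the furthest apart. VBA5 met the RPKM minimum only through its tSH2Δ libraries, so the filter partly fixed its place here. MET1 stands at the far right, since the order is that of the log2 fold change of rescaled RPKM plus 1.

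The escapes were mostly genes of low level. Their median WT level was 20.6 rescaled RPKM, against 115.2 for the members called lower, and 10 of the 14 lay under 25, as did 7 of the 84. Level and change went together on the arm and elsewhere. Across the 98 members the log2 fold change correlated with the log2 mean level at a Pearson's r of -0.54 and a Spearman's rho of -0.57, and across 5965 genes off chromosome XI at -0.41 and -0.46. These are descriptions across genes of the same libraries, and the level enters both measures.

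At like levels the members still lay below the genes of other chromosomes. Between 50 and 200 rescaled RPKM, taken as the mean of the strains, 57 members had a median of -0.80 and 2567 genes off chromosome XI one of -0.07. Between 10 and 50, the median was -0.49 for 22 members and 0.28 for 2240 genes. The outer bins hold few members. Under 10 rescaled RPKM, 6 members had a median of -0.46 against 0.35, and at 200 or more, 13 members had one of -1.15 against -0.77. In replicate spread, the median SD of log2 values in WT was 0.0454 for members and 0.0606 for genes off chromosome XI. In tSH2Δ these were near-equal, at 0.0525 and 0.0515. The sets were not matched by level for this.

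**Figure D5:**
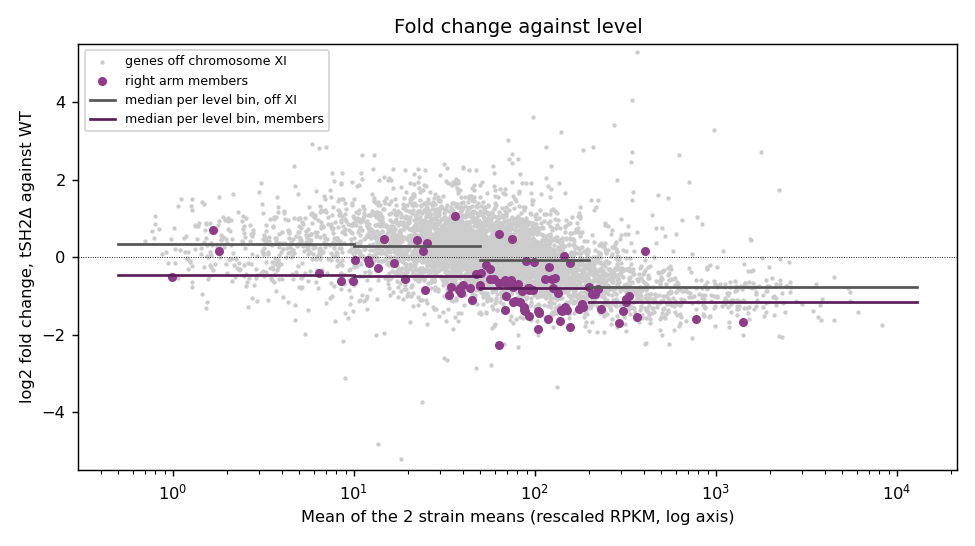
The log2 fold change of each tested gene off chromosome XI (grey) and each right arm member (purple) is plotted against the mean of the strain means in rescaled RPKM on a log axis, with horizontal lines at the medians of 4 level bins. The members' line lies below the grey line in each bin, by 0.81, 0.77, 0.73 and 0.38 from the lowest level to the highest.

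The authors' deposited table of changed genes, which gives a log2 ratio of mean RPKM values without rescaling, lists 39 of the members, 31 as lower and 8 as higher. Over all tested genes that table lists 7.69% as lower and 38.1% as higher. TVP38 has the lowest log2 ratio of the members in the authors' deposited table, -1.69, and MET1 the highest, 1.63. It comes from the same RPKM values, so it is no separate evidence.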

How the data were processed

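Per the labels' protocols, RNA was extracted with acid phenol, treated with DNase, depleted of rRNA with a stranded total RNA kit and sequenced as single-end reads. The authors deposited RPKM for 6571 genes, and a table of changed genes with, per the file headers, DESeq2 adjusted p-values and a log2 ratio of mean RPKM plus 1. The submitters' processing notes name the build sacCer3 and list Bowtie 1.1.2, HTSeq 0.6.1 and DESeq2 among the tools, for both assays at once and with no role. The ATAC-seq libraries were not analysed here, nor were promoter motifs.

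Multiplied by gene length, 100% of the RPKM values were whole multiples of what 1 read is worth (tolerance 0.01 reads), which gave reads per gene. A row that names no gene, with 0.513% to 0.926% of the reads, was left out. Size factors by median ratio lay between 0.811 and 0.828 for WT and between 1.20 and 1.23 for tSH2Δ. The test was limma 3.58.1 (R 4.3.3, eBayes with trend, two-sided) on log2(RPKM + 1) of genes with 1 RPKM or more in 3 libraries, which understates changes of low genes, with Benjamini-Hochberg adjustment. Gene names and 1-based spans came from RefSeq assembly R64, and 5897 of 6571 IDs matched.

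The members, the role lists and the rules were chosen with earlier results of these data known. Named were, among members that have a standard name and reach 5 rescaled RPKM in either strain's mean, the 10 largest falls and all escapes, the 5 highest WT levels, the extremes of each role list, and members at the ends of the arm and next to a threshold. One result that this rule would name is not reported here. Other members were named as examples or neighbours after their values were seen. Alternatives covered the pseudocount, filter, scaling, limma-voom on whole reads, a replicate block, RefSeq genes alone and leaving out each library.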

Additional observations from a re-analysis of the deposited data

How the results depend on the processing

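The counts of members called lower and of left arm genes called lower kept within 1.5 times their values (84 and 207) under each alternative run. Both dropped most with RPKM as deposited, to 58 of 98 members and 149 of 235 left arm genes. The count called higher, 8, went to 24 with RPKM as deposited. On that scale 17.3% of all tested genes were called lower and 72.4% higher. The members' median log2 fold change of -0.79 became -0.73 with a pseudocount of 5 RPKM, -0.22 with RPKM as deposited, -0.83 with size factors from genes off chromosome XI, -0.73 after quantile normalization and -0.81 with limma-voom. The gap to genes off chromosome XI, -0.84, became -0.85 with a pseudocount of 0.1 RPKM, -0.76 with 5 RPKM, -0.82 with no filter, -0.83 with RPKM as deposited, -0.75 after quantile normalization and -0.85 with limma-voom. Leaving out each library gave -0.80 to -0.77 for the median, -0.84 to -0.82 for the gap, 81 to 83 members lower, 7 to 8 higher and 205 to 209 left arm genes lower. With RPKM as deposited, NTR2 (0.47), ALY1 (0.38), OMA1 (0.33), TGL4 (0.45), OAF3 (0.28), FLO10 (0.0905), YKR104W (0.27) and NFT1 (0.40) were positive, as were NTR2 (0.0355), OMA1 (0.0258) and TGL4 (0.0631) after quantile normalization. These follow from the scaling. With replicate number as a block (paired libraries), 82 members were lower and 8 higher. The numbers are not shown to pair libraries, as deviations of same-numbered libraries correlated at -0.28 to -0.09. Depth limits VBA5, GEX2 and YKR033C, which had few reads.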
